A study of Homo sapiens with 6 samples.

Results

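The glucocorticoid receptor gene NR3C1 and 7 genes known to respond to the receptor, SGK1, TSC22D3, PER1, KLF9, DUSP1, ZBTB16 and ERRFI1, were followed through 6 human prostate cancer cell lines. These 8 genes, of 47032 gene symbols in the deposited tables, were selected by name with the expression values of the same libraries in view, NR3C1 because it was higher in 1 resistant line than in its parent. The differences between resistant and parental lines are therefore given as a description with no test. Each of the 8 symbols stood in 1 entry of every table, and 7 of the 8 passed a filter on low values described below. SGK1 did not.

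LNCaP (also written LnCaP in the labels), VCaP and LAPC4 were labelled castration sensitive. LNCaP-abl, VCaP-CR and LAPC4-CR were labelled castration resistant, and each carries the name of a sensitive line, which gives 3 pairs. The medium was RPMI for LNCaP and LAPC4 and DMEM for VCaP, with 10% fetal bovine serum. For all 3 resistant lines it was RPMI, the serum (10%) was charcoal-stripped, and B27, a defined cell culture supplement, was added. No line received any further agent. Charcoal stripping removes steroids, glucocorticoids included, while the usual B27 formula contains corticosterone, which binds the glucocorticoid receptor. The labels do not give the formula used, and the supply of receptor ligand in the cultures is not known. State, serum and B27 differed together in every pair, and in the VCaP pair the basal medium as well, so their effects cannot be told apart. All lines were derived from metastatic prostate cancer. The labels do not say how the resistant lines were derived or whether each is 1 clone.

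The glucocorticoid receptor is a nuclear receptor that waits in the cytoplasm in a complex with HSP90 chaperones. After binding a hormone such as cortisol it enters the nucleus and binds DNA at a palindromic element that other steroid receptors also recognise. In prostate cancer it is known for taking over part of the androgen response when androgen signalling is blocked. Several response genes described here, ZBTB16, SGK1 and FKBP5 among them, are also induced by androgen in prostate cells.

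Each line was represented by 1 library, with 8661337 to 22433655 counts in total, and more for the resistant than for the sensitive line of every pair. Levels are given as scaled FPKM, the deposited FPKM (fragments adjusted for library total and gene length) divided by 1 factor per library (0.8633 to 1.0821). Scaled FPKM is per length, so levels of different genes can be set side by side. Luminal epithelial markers, which define the tissue's secretory cells, summed to 139 to 539 scaled FPKM over 5 genes. Of 5 basal markers, KRT5 and TP63 were at or under 0.455 in every library, and KRT14 was under 1 except in LAPC4-CR at 1.7. The basal integrins ITGA6 and ITGB4 were higher in each resistant line, ITGA6 at 3.02 against 4.62, 3.92 against 7.08 and 7.07 against 25.7, and ITGB4 at 4.73 against 6.55, 1.76 against 3.54 and 7.14 against 15.1 (LNCaP, VCaP and LAPC4 pairs, sensitive line first). Leukocyte markers summed to 1.13 to 2.91 over 4 genes. Stromal markers summed to 2.82 to 7.02 over 8 genes in 5 libraries and to 51.9 in VCaP-CR, where LUM, an extracellular matrix proteoglycan, made up 49.8. The 4 neuroendocrine markers summed to 5.03 in LNCaP and 13.5 in LNCaP-abl, 8.79 and 31.2 in the VCaP pair, and 5.18 and 2.21 in the LAPC4 pair. CHGA was at 21.4 in VCaP-CR and at most 2.33 elsewhere, and ENO2 at 3.59 in LNCaP, 12.3 in LNCaP-abl, 3.68 in LAPC4 and 0.926 in LAPC4-CR. None of the listed markers was at 0 counts.

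The start sites of the receptor gene and of 2 response genes are shown because the members differ in what lies upstream. RefSeq (GRCh38.p14) held 18 promoter entries for 7 of the 8 members and none for ZBTB16. The 250 bases before each start were searched on both strands for the receptor's palindrome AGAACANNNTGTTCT, its half-site AGAACA, the cyclic AMP element core TGACG, the E-box CACGTG, the GC box GGGCGG and the TATA box TATAAA. The windows printed touch no annotated exon. All lie on the minus strand and are written 5′ to 3′ along the gene, with capitals for the half-site, TGACG, E-box and TATA matches, read on either strand.
NR3C1, distal start, chr5:143435513-143435762: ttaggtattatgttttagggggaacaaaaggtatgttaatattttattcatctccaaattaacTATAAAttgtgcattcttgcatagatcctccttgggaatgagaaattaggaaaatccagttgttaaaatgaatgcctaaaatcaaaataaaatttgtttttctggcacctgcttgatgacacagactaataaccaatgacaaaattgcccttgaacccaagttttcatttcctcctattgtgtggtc
NR3C1, CpG-rich start, chr5:143405356-143405605: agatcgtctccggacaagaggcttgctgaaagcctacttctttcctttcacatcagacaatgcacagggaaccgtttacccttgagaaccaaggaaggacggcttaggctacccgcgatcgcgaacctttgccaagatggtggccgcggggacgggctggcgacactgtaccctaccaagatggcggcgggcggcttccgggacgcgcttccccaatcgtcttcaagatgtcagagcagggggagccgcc
DUSP1, chr5:172771196-172771445: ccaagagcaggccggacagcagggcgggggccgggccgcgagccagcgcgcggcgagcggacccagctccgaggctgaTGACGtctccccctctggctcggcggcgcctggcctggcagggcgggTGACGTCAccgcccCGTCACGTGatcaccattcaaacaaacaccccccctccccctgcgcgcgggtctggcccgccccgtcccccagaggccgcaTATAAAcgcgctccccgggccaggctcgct
KLF9, chr9:70414658-70414907: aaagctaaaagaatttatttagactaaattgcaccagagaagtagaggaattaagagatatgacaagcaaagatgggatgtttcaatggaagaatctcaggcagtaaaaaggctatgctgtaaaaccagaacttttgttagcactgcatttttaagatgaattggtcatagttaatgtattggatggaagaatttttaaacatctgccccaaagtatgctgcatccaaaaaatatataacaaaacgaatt
The 2 NR3C1 windows differ in base composition. The distal one has 0 CpG dinucleotides, 32.8% GC and a TATA match that begins 187 bases before the start. The other has 20 CpG dinucleotides, 59.6% GC and a GC box 62 bases before the start. The counts are per gene, so they do not show which of the 7 NR3C1 starts was used. The DUSP1 window holds 4 TGACG matches, 2 of them overlapping on opposite strands, an E-box that overlaps the fourth, and a TATA match 30 bases before the start. The KLF9 window holds 1 CpG, 32.4% GC and none of the searched motifs.

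Over all 35116 promoter windows, TGACG stood in 21.2%, CACGTG in 6.34%, GGGCGG in 42.6%, TATAAA in 10.7% and the half-site in 12.4%. The whole palindrome stood in 1 window, a share of 0.00285%. No member window held the half-site or the palindrome, which says only that these letters are not in these windows. A match is a description of letters and not a binding site.

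NR3C1, the receptor gene, was 13.9 times as abundant in LNCaP-abl as in LNCaP, while the other resistant lines lay below their parents, in the VCaP pair within counting error. NR3C1 (ENSG00000113580, chr5:142637689-142795270 in hg18, the build named in the submitters' processing notes) had 44 counts in LNCaP against 753 in LNCaP-abl, 82 in VCaP against 100 in VCaP-CR, and 89 in LAPC4 against 73 in LAPC4-CR. In scaled FPKM these were 0.512, 7.13, 0.896, 0.674, 0.732 and 0.329 in the same order. LNCaP-abl stood alone, 7.96 times above the next line, VCaP (exact 95% interval of the count ratio 6.33 to 10.1, counting error only). Below it the neighbours VCaP and LAPC4, LAPC4 and VCaP-CR, and VCaP-CR and LNCaP did not differ beyond counting error. LNCaP was 1.56 times LAPC4-CR, the lowest line (interval 1.05 to 2.29).

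Within the pairs, the NR3C1 ratio of resistant to sensitive line was 13.9 for LNCaP (95% interval 10.3 to 19.4), 0.752 for VCaP (0.556 to 1.02) and 0.449 for LAPC4 (0.325 to 0.619). The interval of the VCaP pair includes no difference. As changes in log2(scaled FPKM + 1), the scale used for all counts of changed genes, these were 2.43, -0.18 and -0.38. Adding 1 shrinks the changes of genes at low levels. With 1 library per line, no within-pair difference has a replicate check, and intervals cover counting error only. Each library is a bulk culture, so more cells with the transcript and more transcript per cell cannot be told apart.

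Among all protein-coding genes of the tables, filtered or not, the NR3C1 level stood at percentile 74.6 in LNCaP-abl and at 31.8 to 44.7 in the other lines. For scale, the leukocyte genes PTPRC and CD3E, which epithelial cells do not use, were listed at 0.13 to 0.339 and 0.212 to 0.6 scaled FPKM across the 6 libraries. NR3C1 in LNCaP and LAPC4-CR lay within the range of CD3E. Fibroblasts and leukocytes are rich in this receptor. In LNCaP-abl, 7 of 8 stromal markers were under 1 scaled FPKM, against 8 of 8 in LNCaP. Among those under 1 in LNCaP-abl were COL1A1 at 0.357, COL1A2 at 0.318 and DCN at 0.237. Higher in LNCaP-abl than in LNCaP were ACTA2, at 1.46 against 0.423, and COL3A1, at 0.727 against 0.423. The stromal sum was 3.8 against 3.93. Of the leukocyte markers, PTPRC was at 0.296 against 0.339 in LNCaP and CD68 at 2.05 against 0.797, and the leukocyte sum was 2.91 against 2.14. ENO2 and the neuroendocrine sum were higher in LNCaP-abl too, as given above, and ENO2 made up most of that sum. CHGA was lower there, at 0.224 against 0.378 in LNCaP, as was CHGB, at 0.326 against 0.447. SYP was at 0.635 against 0.615. The part of these markers in the NR3C1 difference was not tested. A pseudogene, RP11-278J6.1, lies inside the NR3C1 locus, with 46 counts in LNCaP and 47 in LNCaP-abl. It had 28 and 40 counts in VCaP and VCaP-CR. In LAPC4 and LAPC4-CR it had 17 and 92, where NR3C1 had 89 and 73. The part of this entry in the NR3C1 counts was not tested.

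**Figure D1:**
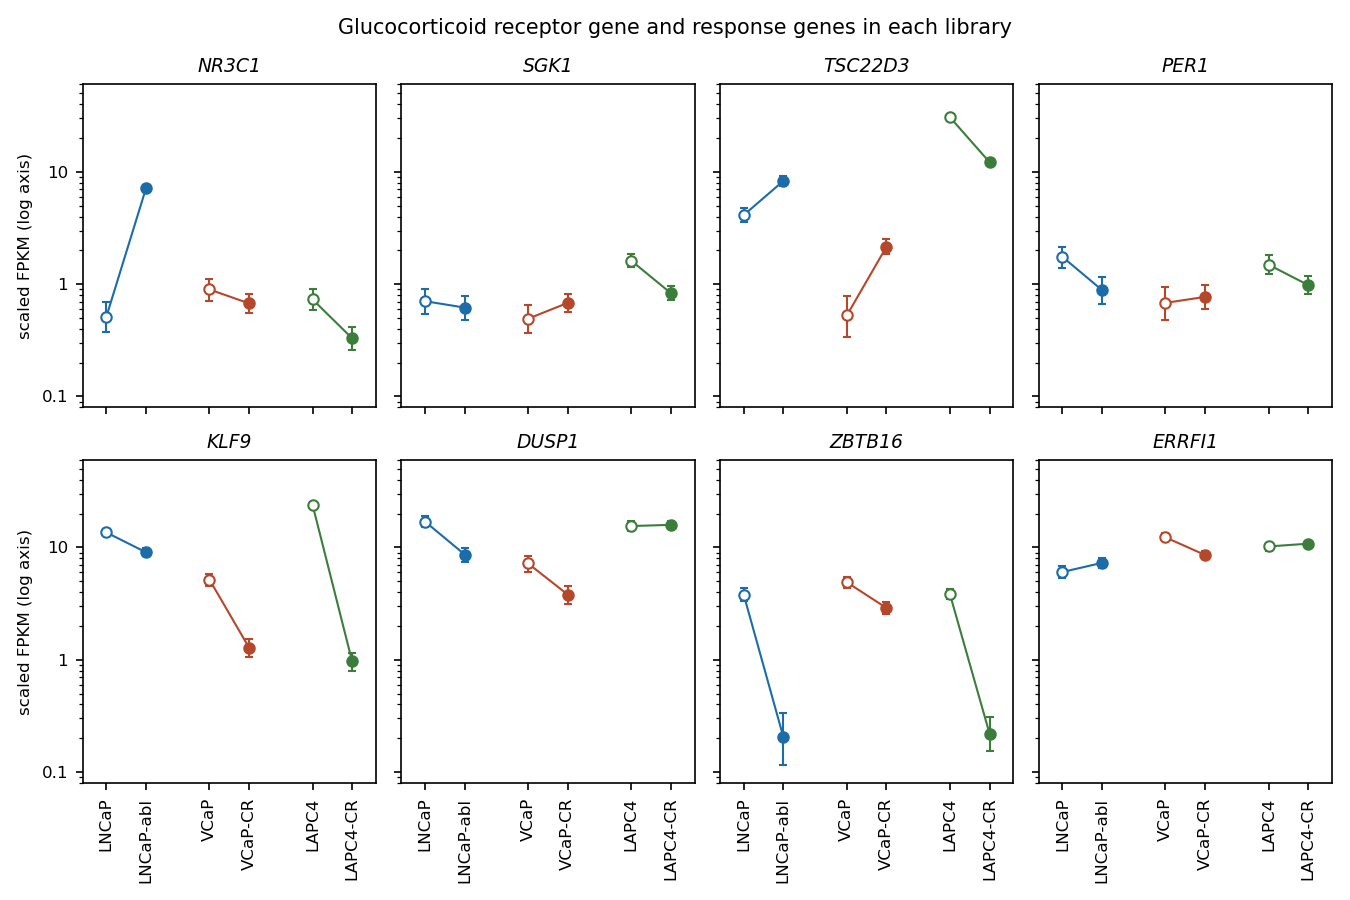
Scaled FPKM (log axis) of the 8 genes in each of the 6 libraries, 1 panel per gene. Open circles are sensitive and filled circles resistant lines, lines join a pair, and bars are exact 95% Poisson intervals of the counts. NR3C1 stands at 7.13 in LNCaP-abl and under 1 in the other 5 libraries, and KLF9 and ZBTB16 lie lower in the resistant line of every pair.

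Other steroid receptor genes were ordered differently. NR3C2, the mineralocorticoid receptor, which also binds cortisol, was at 2.02 scaled FPKM in LNCaP against 1.07 in LNCaP-abl, 1.7 in VCaP against 0.815 in VCaP-CR, and 3.36 in LAPC4 against 1.59 in LAPC4-CR, lower in each resistant line. NR3C2 did not pass edgeR's test over the 3 pairs after adjustment over all tested genes, with an unadjusted p of 0.0102. NR3C1 was above NR3C2 in LNCaP-abl alone of the 6 libraries. ESR1, an oestrogen receptor gene, was at 10.6 to 22.1 and above NR3C1 in every library. PGR, the progesterone receptor gene, was at 0.251 to 0.505.

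**Figure D2:**
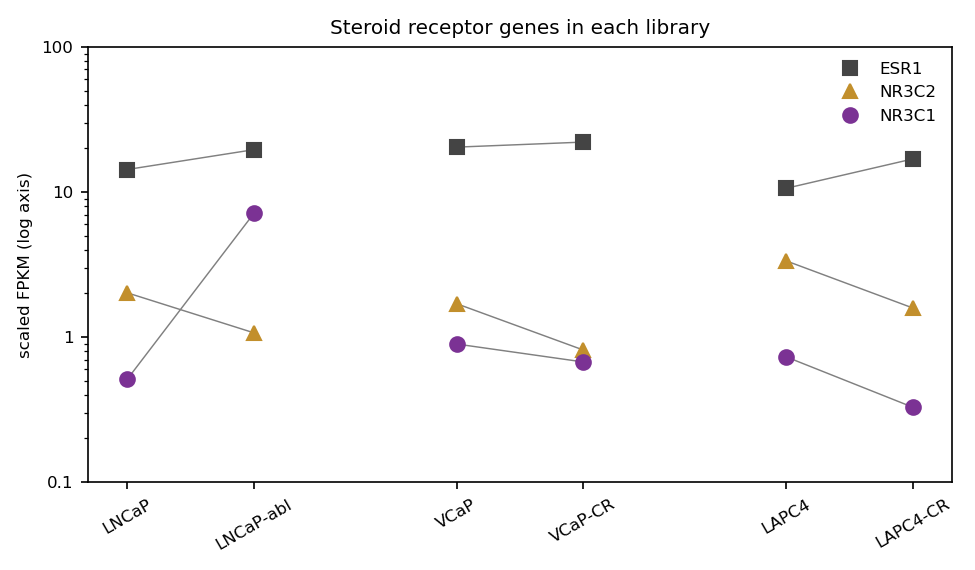
Scaled FPKM (log axis) of ESR1 (squares), NR3C2 (triangles) and NR3C1 (circles) in each library, with lines joining the 2 libraries of a pair and no error bars. NR3C1 lies above NR3C2 in LNCaP-abl, at 7.13 against 1.07, and ESR1 lies highest of the 3 genes in every library.

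Among the 5 protein-coding genes whose pattern over the 6 libraries was most like that of NR3C1, by Pearson r of log2(scaled FPKM + 1), were PISD (0.9972), MYRIP (0.9956), MED24 (0.9951) and TNC (0.9922). All points share their libraries, and LNCaP-abl is far from the others, so r is given as a description. Over the 5 libraries other than LNCaP-abl it was 0.98, 0.87, 0.99 and 0.91 for these 4. The genes were ranked by r over all 6 libraries, so high values over 5 of them follow in part from that choice. The sizes of the differences varied. MYRIP, a myosin- and Rab-binding protein gene, was at 31.9 scaled FPKM in LNCaP-abl and 2.96 to 4.33 elsewhere. MED24, a subunit of the Mediator complex, was at 15.9 against 10.8 to 12.0. TNC, which encodes the matrix protein tenascin C, was at 5.17 against 0.181 to 0.306. It passed the filter only through LNCaP-abl, the library for which NR3C1 was chosen.

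Of the response genes, TSC22D3 and KLF9 had the widest ranges among the 6 libraries, together with ZBTB16. TSC22D3 (ENSG00000157514, chrX:106843107-106907228) encodes GILZ, a leucine zipper protein that carries part of the anti-inflammatory action of glucocorticoids. It was at 4.12 scaled FPKM in LNCaP against 8.30 in LNCaP-abl, 0.526 in VCaP against 2.15 in VCaP-CR, and 30.7 in LAPC4 against 12.2 in LAPC4-CR. The resistant line was higher in the LNCaP pair, by a ratio of 2.01 (1.69 to 2.4), and in the VCaP pair, by 4.09 (2.68 to 6.51). It was lower in the LAPC4 pair, at 0.396 of the parent (0.37 to 0.425). The VCaP value rested on 25 counts. In VCaP-CR, LUM and CHGA were higher than in VCaP too, as given above. Of the other stromal markers, COL1A1 and DCN were higher there, and COL1A2, COL3A1, PDGFRB, ACTA2 and VIM were lower. ACTA2 was at 1.39 in VCaP and 0.429 in VCaP-CR. Of the other neuroendocrine markers, CHGB and SYP were higher and ENO2 was lower, at 3.4 and 2.79. The part of these markers in the TSC22D3 difference was not tested.

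The TSC22D3 levels of the lineages did not overlap: both LAPC4 libraries lay above both LNCaP libraries, and these above both VCaP libraries. The share of all tested genes without such overlap is not given here, so whether TSC22D3 stands out by it was not tested. The difference between lineages was not used to choose the genes and was tested with edgeR in a model with state and lineage. TSC22D3 passed, with an adjusted p of 0.0406 (edgeR quasi-likelihood F test, Benjamini-Hochberg over 17310 genes), and mean levels of 6.21 in the LNCaP, 1.34 in the VCaP and 21.4 in the LAPC4 lineage. It was the 1 call among the 7 members tested, and 12.1% of all tested genes were called, a share near which 1 of 7 lies. Without the VCaP pair its adjusted p was 0.219. The residual of this test is the difference between state effects of the lineages, and nothing in the labels speaks of separate cultures.

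KLF9 (ENSG00000119138, chr9:72189323-72219360), a Krüppel-like transcription factor induced by glucocorticoid and thyroid hormone, was lower in the resistant line of all 3 pairs. It was at 13.6 scaled FPKM in LNCaP against 9.05 in LNCaP-abl, 5.18 in VCaP against 1.28 in VCaP-CR, and 24.1 in LAPC4 against 0.964 in LAPC4-CR. The LAPC4 pair differed most, from 1656 to 121 counts, and the parent was 25 times the resistant line (20.8 to 30.3). In the VCaP pair the parent was 4.06 times (3.23 to 5.13) and in the LNCaP pair 1.5 times (1.34 to 1.68) the resistant line. In the order of changes in the LAPC4 pair KLF9 stood 26th from the bottom of 17310 genes.

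ZBTB16 (ENSG00000109906, chr11:113435525-113626608), which encodes the zinc finger repressor PLZF, was likewise lower in all 3 resistant lines. It was at 3.8 and 0.205 scaled FPKM in LNCaP and LNCaP-abl, 4.90 and 2.89 in VCaP and VCaP-CR, and 3.85 and 0.220 in LAPC4 and LAPC4-CR. The 3 sensitive lines were close to one another, between 3.8 and 4.90. LNCaP was 18.6 times LNCaP-abl (11 to 33.7), LAPC4 was 17.5 times LAPC4-CR (12.2 to 25.7) and VCaP 1.69 times VCaP-CR (1.44 to 1.99). The low levels rested on 15 counts in LNCaP-abl and 34 in LAPC4-CR and lay within the range of PTPRC given above.

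DUSP1 (ENSG00000120129, chr5:172127698-172130804) encodes a phosphatase that switches off MAP kinases. It was at 17.0 scaled FPKM in LNCaP against 8.65 in LNCaP-abl, 7.2 in VCaP against 3.8 in VCaP-CR, and 15.5 in LAPC4 against 15.9 in LAPC4-CR. LNCaP-abl and VCaP-CR had close to equal fractions of their parents, 50.9% (ratio 0.509, interval 0.424 to 0.608) and 52.7% (0.527, 0.412 to 0.675). The LAPC4 pair had a ratio of 1.03 (0.91 to 1.16). Both VCaP libraries lay below the other 4, an order whose share over all tested genes is not given here. The lineage test gave an adjusted p of 0.0795 in edgeR.

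ERRFI1 (ENSG00000116285, chr1:7987051-8008955), a feedback inhibitor of the EGF receptor, varied least of the 8 genes. It was at 6.04 scaled FPKM in LNCaP against 7.29 in LNCaP-abl, 12.3 in VCaP against 8.56 in VCaP-CR, and 10.2 in LAPC4 against 10.8 in LAPC4-CR, so the highest library had 2.04 times the lowest. The ratios of resistant to sensitive line were 1.21 (1.02 to 1.43), 0.695 (0.616 to 0.784) and 1.07 (0.963 to 1.18).

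PER1 (ENSG00000179094, chr17:7984534-8000403), a repressor of the circadian clock with a rapid glucocorticoid response, was low in all lines. It was at 1.75 scaled FPKM in LNCaP against 0.885 in LNCaP-abl, 0.681 in VCaP against 0.770 in VCaP-CR, and 1.49 in LAPC4 against 0.981 in LAPC4-CR. LNCaP-abl was at 0.506 of its parent (0.353 to 0.718) and LAPC4-CR at 0.657 (0.503 to 0.859), and the VCaP ratio of 1.13 (0.742 to 1.75) includes no difference. The locus overlaps that of VAMP2, which had 68 to 508 counts against 36 to 126 for PER1. Whether the counting used strand is not given in the sources used here, so the PER1 values are uncertain.

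SGK1 (ENSG00000118515, chr6:134532077-134680943), a kinase that promotes cell survival and sodium uptake, was the member below the filter, with a mean of 0.825 scaled FPKM. It was at 0.705 in LNCaP against 0.618 in LNCaP-abl, 0.492 in VCaP against 0.681 in VCaP-CR, and 1.62 in LAPC4 against 0.831 in LAPC4-CR. LAPC4-CR was at 0.512 of LAPC4 (0.42 to 0.623), and the intervals of the LNCaP ratio (0.876, 0.618 to 1.24) and the VCaP ratio (1.38, 0.98 to 1.98) include no difference. A pseudogene, KRT8P42, lies inside the SGK1 locus. It had 46 counts in LAPC4 and 87 in LAPC4-CR, where SGK1 had 215 and 201, and 7 to 13 counts in the other lines. Its part in the SGK1 counts was not tested.

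**Figure D3:**
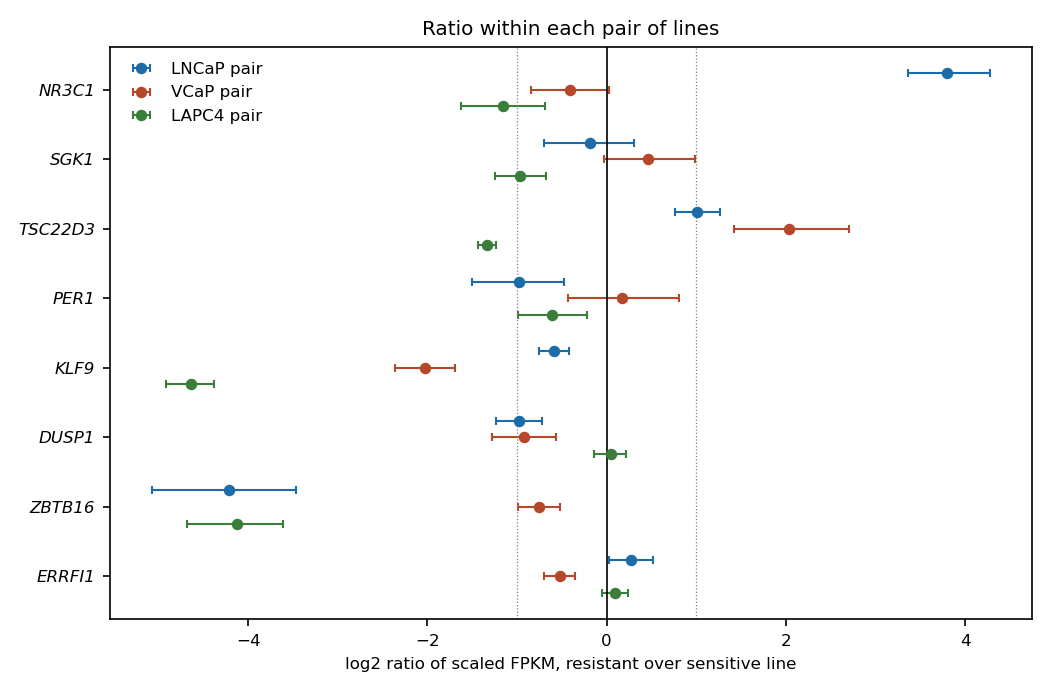
Ratio of scaled FPKM, resistant over sensitive line, on a log2 axis for each of the 8 genes in the 3 pairs. Points are 1 library against 1 library, bars are exact 95% intervals of the count ratio, and dotted lines mark 2-fold. NR3C1 lies right of 2-fold in the LNCaP pair at a ratio of 13.9 and left of no difference in the LAPC4 pair at 0.449.

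The members did not share a direction. In the LNCaP pair NR3C1, TSC22D3 and ERRFI1 were higher and the other 5 lower in the resistant line. In the VCaP pair SGK1, TSC22D3 and PER1 were higher, and in the LAPC4 pair DUSP1 and ERRFI1. KLF9 and ZBTB16 were lower in 3 of 3 pairs, and no member was higher in all 3. Of all 17310 tested genes, 8716 were below the parent in LNCaP-abl, 8886 in VCaP-CR and 8614 in LAPC4-CR. The share of tested genes with 1 direction in all 3 is not given here. Whether KLF9 and ZBTB16 stand out by their shared direction was therefore not tested. In LNCaP-abl, where NR3C1 was 13.9 times its parent's level, TSC22D3 was the 1 response gene among the 7 whose ratio reached 2, and its change on the log2(scaled FPKM + 1) scale was 0.86.

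With 2-fold set at 1 unit of log2(scaled FPKM + 1), the LNCaP pair had 1 member higher (NR3C1; 6.66% of all 17310 tested genes were so called) and 1 lower (ZBTB16; 7.69%). The VCaP pair had 1 higher (TSC22D3; 2.51%) and 1 lower (KLF9; 2.28%). The LAPC4 pair had 0 higher (5.74%) and 3 lower (TSC22D3, KLF9 and ZBTB16; 6.7%). These counts describe genes chosen from the same contrast. In the lineage test the other 6 members had adjusted p-values of 0.0795 to 0.425 (edgeR). NR3C1 is among these 6, but it passed the filter only through LNCaP-abl, the library for which it was chosen, so its p-value of 0.315 is not independent of that choice.

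A wider list of 33 other genes known to respond to glucocorticoid was set beside the members. In LNCaP-abl, 17 of the 26 that passed the filter were higher and 9 lower than in LNCaP (8572 and 8716 of all 17310 tested genes), with a median change of 0.27 against -0.01 over all tested genes and 0.12 over protein-coding ones. In the VCaP pair the median was 0.12, against -0.01 over all tested genes, and in the LAPC4 pair -0.15, against 0.00. At least 2-fold higher and lower genes numbered 3 and 3 in the LNCaP pair (6.66% and 7.69% of all tested genes), 1 and 0 in the VCaP pair (2.51% and 2.28%), and 4 and 6 in the LAPC4 pair (5.74% and 6.7%). For the 11333 tested protein-coding genes, such counts came to 923 up and 416 down in the LNCaP pair. They came to 247 and 212 in the VCaP pair, and to 807 and 470 in the LAPC4 pair.

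FKBP5, an HSP90 co-chaperone that dampens the receptor and is induced by it, was the lowest of the list in the LNCaP pair. It was at 10.7 scaled FPKM in LNCaP against 2.51 in LNCaP-abl, 6.89 in VCaP against 5.35 in VCaP-CR, and 6.23 in LAPC4 against 1.98 in LAPC4-CR. LNCaP-abl, the line with the most NR3C1, thus had the second lowest FKBP5 level. FOXO3, a transcription factor of stress resistance, was the highest of the list in that pair, at 8.39 and 24.9. Here and below, 2 values of a pair are scaled FPKM of the sensitive and then the resistant line, and a series of 3 such values follows the order LNCaP, VCaP, LAPC4. In the VCaP pair TNFAIP3, an inhibitor of NF-kB signalling, was highest at 0.499 and 2.20, and CDKN1A, the cell cycle inhibitor p21, lowest at 20.7 and 10.5. In the LAPC4 pair SCNN1A, an epithelial sodium channel subunit, was highest at 1.37 and 10.2. ANGPTL4, a secreted inhibitor of lipoprotein lipase, was lowest there at 48.7 and 1.74, with 1229 and 80 counts.

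**Figure D4:**
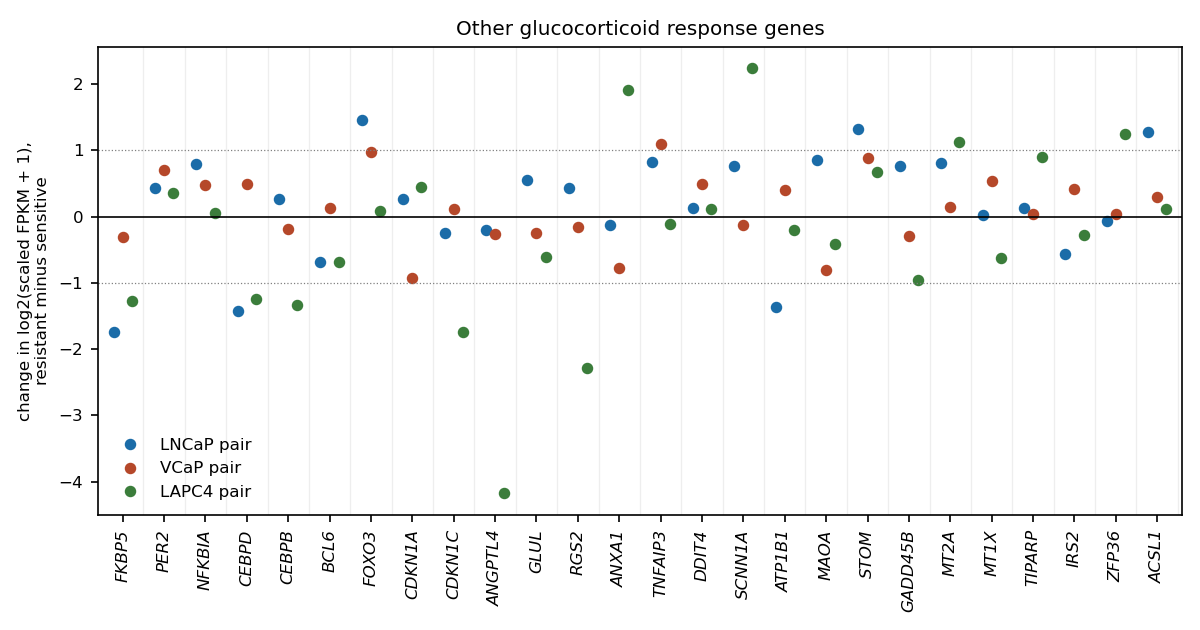
Change in log2(scaled FPKM + 1), resistant minus sensitive line, for the 26 other glucocorticoid response genes that passed the filter, with 1 point per pair and dotted lines at 2-fold. The points of the 3 pairs spread to both sides of 0, from -4.18 for ANGPTL4 to 2.24 for SCNN1A, both in the LAPC4 pair.

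Over the 3 pairs, edgeR called 0 of the 26 at an adjusted p under 5%, and 0% of all tested genes in either direction (0 higher, 0 lower). At an unadjusted p under 0.05, 3 of the 26 were higher and 1 lower, against 4.97% and 3.99% of all tested genes. The lower gene was FKBP5, with an unadjusted p of 0.00914 in edgeR over all tested genes. DESeq2 called 1 of the 26 higher and 0 lower, against 0.537% and 0.358% of all tested genes. That gene was STOM, which encodes the membrane protein stomatin and was picked out after its values were seen (DESeq2 adjusted p = 0.0191, higher in 3 of 3 pairs). STOM was at 0.502 and 2.75 scaled FPKM in the LNCaP pair, 0.189 and 1.18 in the VCaP pair and 0.639 and 1.61 in the LAPC4 pair, with 6 counts in VCaP. All 3 sensitive lines lay under 1 scaled FPKM, so STOM passed the filter only through the resistant lines. Its p-value is therefore not independent of the filter. In the lineage test 8 of the 26 were called by edgeR, against 12.1% of all tested genes and 1673 of 11333 tested protein-coding ones. FKBP5 was not among the 8 (adjusted p = 0.382). IRS2, under 1 scaled FPKM outside the VCaP pair, and ANGPTL4, under 1 outside the LAPC4 pair, were among them. Both passed the filter only through the lineage where they were high, so their calls are not independent of the filter.

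The receptor's chaperones, which hold it ready for hormone, were abundant in every line. All 15 listed passed the filter, and their median change was 0.19 in the LNCaP pair, while the VCaP pair gave 0.02 and the LAPC4 pair 0.42. HSP90AA1, the inducible HSP90 gene, was at 213 and 311 scaled FPKM in the LNCaP pair, 84.6 and 132 in the VCaP pair and 107 and 229 in the LAPC4 pair. HSP90AB1, its constitutive partner, was at 337 and 455, 439 and 223, and 180 and 408. DNAJB1, a co-chaperone of HSP70, was at 17.3 and 36.8, 18.6 and 26.7, and 25.9 and 62.5. PTGES3, which encodes p23, was the lowest changed of the list in the LNCaP pair, at 58.4 and 32.2. STUB1, a ubiquitin ligase of chaperone clients, was the lowest in the LAPC4 pair, at 28.1 and 18.9. EdgeR called 0 of the 15 after adjustment, and 2 were higher at an unadjusted p under 0.05 (4.97% of all tested genes). DESeq2 called 0.

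Of 15 cofactors through which nuclear receptors act on transcription, 13 were higher in the resistant line of the LNCaP pair, 11 in that of the VCaP pair and 12 in that of the LAPC4 pair. Of all 17310 tested genes, 8572, 8398 and 8680 were higher in the resistant lines of these pairs. All 15 cofactors passed the filter, with median changes of 0.38, 0.49 and 0.85. Over tested protein-coding genes the medians were 0.12, 0.00 and 0.08. EdgeR called 0 after adjustment, and 9 were higher and 0 lower at an unadjusted p under 0.05, against 4.97% and 3.99% of all tested genes. DESeq2 called 2 higher, NCOA2 (adjusted p = 0.0176) and MED14 (adjusted p = 0.0302), against 0.537% of all tested genes. NCOA2, a p160 coactivator, was at 7.88 and 40.3 scaled FPKM in the LNCaP pair, 15.9 and 37.2 in the VCaP pair and 6.98 and 13.4 in the LAPC4 pair. MED14, a Mediator subunit, was at 2.62 and 4.51, 3.02 and 8.23, and 1.98 and 5.41. SMARCA2, an ATPase of the SWI/SNF complex, was at 5.68 and 15.4, 10.1 and 14.8, and 2.1 and 10.8. EP300, a histone acetyltransferase, was at 5.47 and 5.33, 3.66 and 7.14, and 2.01 and 7.91. HDAC3, a histone deacetylase of corepressor complexes, was at 11.1 and 11, 11.6 and 7.32, and 15.2 and 11.6.

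Gene length was set beside these values. At an unadjusted p under 0.05 in edgeR, 9 of the 15 cofactors were higher, as given above. Of tested protein-coding genes at least as long as the shortest cofactor, 2968 bases, 8.03% were higher. Their median changes were 0.16, 0.05 and 0.14. Of those at least as long as the median cofactor, 8633 bases, 18.5% were higher, with median changes of 0.23, 0.19 and 0.29. The part of length in the cofactor values was not tested.

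Enzymes that set the supply of active hormone were measured as well. HSD11B1, which regenerates cortisol from cortisone, was listed at 0.131 to 0.699 scaled FPKM on 2 to 15 counts per library and did not pass the filter. HSD11B2, which inactivates cortisol, was at 6.3 and 6.29 in the LNCaP pair, 3.47 and 1.19 in the VCaP pair and 4.54 and 4.9 in the LAPC4 pair. VCaP was 2.93 times VCaP-CR, on 65 and 36 counts. H6PD, which supplies the cofactor of HSD11B1, was at 6.26 and 6.62, 3.33 and 3.47, and 1.44 and 1.8. SRD5A1, a steroid reductase, was at 3.06 and 4.21, 2.81 and 3.47, and 14.1 and 8.87. H6PD and SRD5A1 differed between lineages in edgeR, with adjusted p-values of 0.0237 and 0.0414. Of the 8 genes listed for metabolism and export, the 5 that did not pass the filter include HSD11B1.

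Several members also belong to programmes other than the glucocorticoid response. DUSP1 is an immediate early gene, and of 16 others listed 11 passed the filter, with medians of 0.33, 0.00 and -0.34. JUN, a subunit of AP-1, was at 7.61 and 30.8 scaled FPKM in the LNCaP pair, where DUSP1 was at 17.0 and 8.65. MYC was at 49.1 and 25.7 there, ATF3 at 21.2 and 7.77 in the LAPC4 pair, IER3 at 26.2 and 39.9 in the LAPC4 pair, and SRF at 6.64 and 5.02 in the VCaP pair. EdgeR called 0 of the 11 after adjustment, with 2 lower at an unadjusted p under 0.05 (3.99% of all tested genes).

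PER1 belongs to the circadian clock, of which 14 other genes were listed and 10 passed the filter, with medians of 0.51, -0.03 and 0.00. PER3, its relative, was at 2.73 and 7.29 scaled FPKM in the LNCaP pair, opposite in direction to PER1. NR1D2, a nuclear receptor of the clock, was at 12.8 and 6.04 there. DBP, a clock output transcription factor, was at 3.85 and 1.7 in the VCaP pair and 3.4 and 0.906 in the LAPC4 pair. CRY2 was at 1.8 and 3.02 in the VCaP pair, and BHLHE40 at 1.99 and 4.93 in the LAPC4 pair. EdgeR called 0 of the 10 after adjustment, with 2 higher and 1 lower at an unadjusted p under 0.05 (4.97% and 3.99% of all tested genes).

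Of the members' gene families, 11 relatives were listed. All 11 passed the filter, and 4 were called between lineages by edgeR, SGK2, DUSP4, DUSP5 and DUSP6, against 12.1% of all tested genes. SGK2 was under 1 scaled FPKM outside the VCaP pair, and DUSP6 outside the LAPC4 pair. Both passed the filter only through the lineage where they were high, so their calls are not independent of the filter. DUSP4, a nuclear phosphatase of MAP kinases, was at 4.72 and 0.838 scaled FPKM in the LNCaP pair, 1.02 and 0.622 in the VCaP pair and 53.1 and 116 in the LAPC4 pair (lineage adjusted p = 0.00889, edgeR). DUSP10 was at 7.34 and 24.4, 5.54 and 3.65, and 50.8 and 4.75. DUSP2 was at 8.34 and 19.3, 10.2 and 6.88, and 2.97 and 8.02. TSC22D1, the closest listed relative of TSC22D3, was at 17.4 and 16.2, 17.6 and 25.5, and 30.9 and 31.1, a narrower range than that of TSC22D3. EdgeR called 0 of the 11 over the pairs after adjustment.

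Androgen targets, genes induced by androgen, were counted in the same way. Of 13 listed, 12 passed the filter, with medians of -1.66, -0.21 and -2.36. At least 2-fold lower were 8 in LNCaP-abl, 4 in VCaP-CR and 9 in LAPC4-CR, against 7.69%, 2.28% and 6.7% of all tested genes. Of the 11333 tested protein-coding genes, 416, 212 and 470 were so called. KLK3, which encodes prostate-specific antigen, was lower by at least 2-fold in all 3 pairs, as was PMEPA1, an inhibitor of TGF-beta signalling. Of all 17310 tested genes, 31 were lower by at least 2-fold in all 3 pairs, and of the 11333 protein-coding ones 9. PMEPA1 was at 17.9 and 0.371 scaled FPKM, 166 and 73.8, and 18.3 and 5.86. EdgeR called 0 of the 12 after adjustment, 6 were lower at an unadjusted p under 0.05 (3.99% of all tested genes), and DESeq2 called 4 lower (0.358%). ACPP, prostatic acid phosphatase, was 1 of 2 targets higher in LNCaP-abl, at 3.94 and 64.7. The other, NDRG1, was picked out after its values were seen and was at 2.18 and 3.41.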

How the data were processed

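RNA-seq libraries (SOLiD Total RNA-Seq kit on RNeasy RNA, per the labels' protocols) of 6 prostate cancer lines were compared, 1 library each. HTSeq and the build hg18 are named in the submitters' processing notes without role or version, and the sources used here do not give the aligner, the annotation or the use of strand. Per the file headers, the deposited tables hold a count and an FPKM value for 51698 entries. Deposited FPKM equalled the count per gene length and table total within 1%, except for 1 gene in LAPC4-CR. Gene length stood in 5 of the 6 tables. Starts are printed 1-based.

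Entries sharing a symbol were summed, and 2448 small RNA symbols were left out. FPKM was divided by median-ratio factors from 12455 genes that reached 1 FPKM in every library. The 17310 genes that averaged 1 scaled FPKM or more were tested. Counts were tested with edgeR 4.0.16 (R 4.3.3; TMM, quasi-likelihood, state with parental line as a block, Benjamini-Hochberg, threshold 5%), for state and, in the same fit, for lineage. DESeq2 1.42.0 and limma 3.58.1 on log2(scaled FPKM + 1), no filter, left-out pairs, no block, pseudocounts of 0.25 and 5, a filter at 5 scaled FPKM, unscaled FPKM and CPM by TMM were alternatives. The edgeR script was tested on simulated data. Pairing comes from the line names: deviations from group means correlated at 0.45, 0.71 and 0.57 within lines and at -0.46 to -0.06 between lines, values that are partly built in because deviations sum to 0. Intervals are exact 95% Poisson or count-ratio intervals and cover counting error only. With total counts of 8661337 to 22433655, genes under about 100 counts, NR3C1 in 4 of the 6 libraries among them, have wide intervals.

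All members were named. Of each other list the genes at least 2-fold changed one way in all pairs and the highest and lowest changed gene of each pair were named, with FKBP5, NR3C2, HSD11B1, HSD11B2 and the 5 genes most like NR3C1. A few genes that this rule names are not reported here. Members and lists were chosen with earlier results of these data known. Promoter windows came from RefSeq GRCh38.p14, matched by symbol.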

Additional observations from a re-analysis of the deposited data

Results flagged for a closer look

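In 3 members the change ran in opposite directions in 2 pairs, with each pair's 95% counting interval on its own side of no difference. NR3C1 was higher in LNCaP-abl and lower in LAPC4-CR than in the parent, and the 2 changes differed by 2.81 in log2(scaled FPKM + 1). TSC22D3 was higher in LNCaP-abl and VCaP-CR and lower in LAPC4-CR, with differences of 2.13 between the LNCaP and LAPC4 pairs and 2.32 between the VCaP and LAPC4 pairs. ERRFI1 was higher in LNCaP-abl and lower in VCaP-CR, with a difference of 0.71. These differences between pairs were not tested, since each line has 1 library.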

How the results depend on the processing

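The sign of each member's change in each pair was the same under 0.25 and 5 as pseudocount, unscaled FPKM and CPM by TMM (96 of 96 values), and 73 of 96 lay within the main value's counting interval. The largest NR3C1 change read 3.28, 1.14 and 3.57 with a pseudocount of 0.25, one of 5 and CPM. With a pseudocount of 5, the members at least 2-fold lower in the LNCaP pair, higher in the VCaP pair and lower in the VCaP pair each went from 1 to 0.

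Over all tested genes, the 2-fold counts moved with the pseudocount and the filter. With a pseudocount of 5, 393 genes were higher and 469 lower in the LNCaP pair, 138 and 95 in the VCaP pair, and 298 and 472 in the LAPC4 pair. With a pseudocount of 0.25, 774 were higher and 675 lower in the VCaP pair and 1531 higher in the LAPC4 pair. A filter at 5 scaled FPKM gave 602 and 751, 220 and 174, and 570 and 700. The main counts were 1153 and 1331, 435 and 394, and 993 and 1159.

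Calls over the pairs were 0 higher and 0 lower in edgeR, 93 and 62 in DESeq2, 96 and 58 without a filter, and 0 and 0 with limma. Leaving out 1 pair at a time gave 0 to 21 higher and 1 to 11 lower; the largest counts came without the LAPC4 pair. With no replicate block edgeR again called 0 and 0, with 293 and 238 genes at an unadjusted p under 0.05 against 860 and 690 in the paired fit. The causes were not tested.

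Lineage calls were 2090 in edgeR, 3971 in DESeq2, 1548 in limma and 4916 without a filter, and 481 to 3208 with 1 pair left out, the lowest without the VCaP pair. For the members, 34 of 42 lineage results stayed on their side of the threshold. TSC22D3 lost its call without the VCaP pair (adjusted p = 0.219) and ranged from 2.77e-05 to 0.219 over the alternatives. DUSP1 passed in DESeq2 (0.0172), without a filter (0.046) and without the LNCaP pair (0.0308). ZBTB16 passed in DESeq2 (0.0338) and without a filter (0.0137). KLF9 passed without the LAPC4 pair (0.00418) and with no filter (0.0273). Of the 5 genes most like NR3C1, 4 were the same with a pseudocount of 0.25, and C19orf6 took the place of TNC. Depth limits NR3C1 outside LNCaP-abl, where 44 to 100 counts stood behind each value.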
